A study of Mus musculus with 2 samples.

Results

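Ly6C-high monocytes of mouse skin were taken as the 135 cell barcodes that held at least 5 unique molecular identifiers (UMIs, each standing for 1 captured RNA molecule) of Ly6c2 and Chil3 together, out of 8127 barcodes after filters and 8367 in all. A barcode also needed at least 200 genes, at most 20% mitochondrial UMIs and fewer than 10 UMIs of C1qa, C1qb, C1qc, Mrc1 and Adgre1 together, 5 genes of macrophages. It could hold at most 5 UMIs of Dcn, at most 5 of Krt5 and Krt14 together, and no UMI of Cd3e, Cd3g, Ncr1 or Klrb1c, which mark fibroblasts, keratinocytes, T cells and natural killer cells. Members were thus chosen by measured RNA, and the levels of these gate genes are given as description. Monocytes were 1.66% of the filtered barcodes (Clopper-Pearson 95% interval 1.39 to 1.96).

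Classical, or Ly6C-high, monocytes are made in the bone marrow, leave it through the chemokine receptor Ccr2, circulate in the blood and enter tissues. In skin they are known to give rise to macrophages and to antigen-presenting cells that acquire MHC class II, while long-lived macrophages of the dermis carry scavenger receptors, lectins and complement C1q. Ly6c2 encodes a surface antigen anchored by glycosylphosphatidylinositol, and Chil3 encodes Ym1, a secreted chitinase-like protein.

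The RNA came from digested skin of C57BL/6 mice aged 8 weeks, either control animals or animals in which neutrophils were depleted at steady state on 2 consecutive days with the antibody 1A8 against Ly6G. Cells of both kinds were marked with hashtag antibodies and pooled into 1 library, the matrix has 0 hashtag rows and 1 barcode suffix, and so control and depleted skin were not separated here and every value describes the pool. Monocytes were set against 2 groups of macrophages that passed the same lineage gates and held at least 10 UMIs of the macrophage genes. The 98 "same-gate macrophages" (1.21% of barcodes, 0.98 to 1.47) also held at least 5 UMIs of Ly6c2 and Chil3, whereas the 878 "macrophages below the gate" (10.8%, 10.1 to 11.5) held fewer. Median depth was 7261 UMIs per barcode in monocytes (1132 to 54956), 9035.5 in same-gate macrophages and 10312 in macrophages below the gate. Levels are CPM, the UMIs of a gene per 1000000 UMIs of all barcodes of a group summed, folds are ratios of these with exact conditional intervals, and all intervals are 95% intervals of counting error only. With 1 library there was no replicate and no test. "Higher" and "lower" below mean at least 2-fold, among genes with at least 50 UMIs in the 2 groups compared.

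The label was checked first against genes the gates did not use. Lyz2, the lysozyme of myeloid cells, was present in 119 of 135 barcodes. It ranged between 0 and 422 UMIs per 10000 in monocytes with a median of 152, against a median of 120 in same-gate macrophages and 77.4 in macrophages below the gate. The 16 barcodes with Lyz2 at 0 also lacked Chil3 and held Ms4a4c in 1 barcode, against 101 of the 119 others. Among these 16 barcodes, 13 held Siglech, a receptor of plasmacytoid dendritic cells, between 1 and 21 UMIs each, and none of the 119 did. In the 13, Tcf4 and Irf8, transcription factors of plasmacytoid dendritic cells among others, were at 3071 CPM and 1714 CPM, against 184 CPM and 99.8 CPM in the barcodes with Lyz2. The Siglech barcodes carried Ly6c2 at 13 to 59 UMIs each, so Ly6c2 alone admitted them. Separately, 3 barcodes, 1 of them among the 16, held at least 5 UMIs of Jchain and Mzb1, genes of antibody-secreting cells, with Ighm at 639 to 1597 UMIs each. Another 3 held at least 10 UMIs of the muscle genes Acta1, Myl1 and Acta2, and 1 held S100a8, an alarmin abundant in neutrophils, at 23 UMIs.

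Altogether 22 barcodes, with 20.9% of the monocyte UMIs and all 6 doublets called among the 135, met at least 1 of these 4 limits on Lyz2, antibody-secreting, muscle and S100a8 RNA, against 3 of 98 same-gate macrophages and 12 of 878 macrophages below the gate. The remaining 113 barcodes had 0 Siglech UMIs, Lyz2 at 17985 CPM and Ms4a4c in 100 barcodes. The RNA of the 16 barcodes without Lyz2 and of the 3 with Jchain and Mzb1 went against the label. The 3 barcodes with muscle RNA each held Lyz2, Plac8 and Ccr2 as well, with Lyz2 at 8854 CPM. Values are for all 135 unless the 113 are named. The limits did not remove all RNA of other cells. A single barcode of the 113 held 33 of their 36 UMIs of Krt1, a keratin of differentiating keratinocytes, and 3 held all 74 UMIs of Ccr7, a receptor of migrating dendritic cells. Neutrophil markers were otherwise low. Cxcr2, Ngp, Camp, Ltf, Ly6g and Stfa2l1 were at 0 among the 135, and 1 barcode held 3 or more of the 16 neutrophil markers. The summed level of the 9 plasmacytoid markers was 2255 CPM in monocytes, against 1327 CPM in same-gate macrophages and 687 CPM in macrophages below the gate, with all 9 present.

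The gate genes describe an uneven group. Ly6c2 was found in 126 of the 135 barcodes, with a median of 20.8 UMIs per 10000 and a highest value of 141. Chil3 was found in 72, with a median of 1.39 and a highest value of 75.9. Only 34 barcodes held at least 5 UMIs of each, 80 passed through Ly6c2, 19 passed through Chil3, and 2 passed by the sum alone. Across the 135, Ly6c2 and Chil3 per 10000 UMIs had a Spearman rho of -0.10, and the summed rate had a rho of -0.32 with total UMIs. Members were chosen by at least 5 summed UMIs of the 2 genes, so both values come with that choice and support nothing further. Just inside the gate, 24 barcodes with 5 to 7 UMIs had Plac8 at 1767 CPM and Ms4a4c at 778 CPM, and just outside, 31 barcodes with 2 to 4 UMIs had 1716 CPM and 435 CPM. At the other gate, 25 barcodes with 6 to 9 UMIs of the macrophage genes had Retnla at 2127 CPM, and 16 just outside with 10 to 14 UMIs had 6325 CPM.

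**Figure D1:**
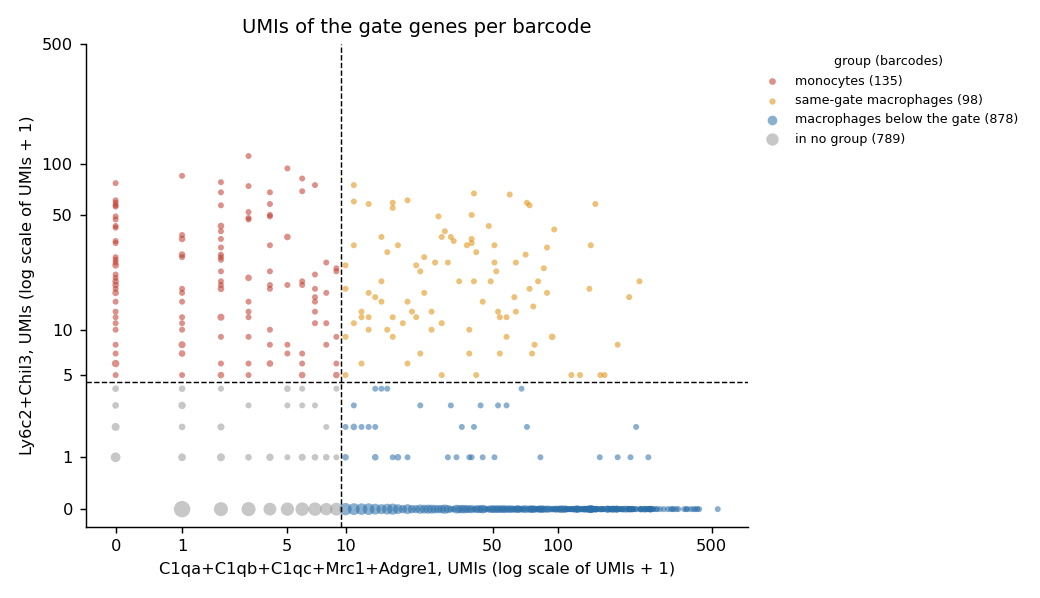
UMIs of Ly6c2 and Chil3 (vertical) against UMIs of the 5 macrophage genes (horizontal) per barcode that passed the lineage gates, on log scales of UMIs + 1, with point area rising with the number of barcodes at a value and dashed lines at the gates of 5 and 10 UMIs. Barcodes at 0 on both axes are not drawn. The 135 monocytes run without a gap into the 98 same-gate macrophages, while most of the 878 macrophages below the gate lie at 0 Ly6c2 and Chil3.

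Both gate genes have close relatives. The transcripts of Ly6c2 (chr15:75108158-75111970, minus strand of GRCm38, which is mm10) and Ly6c1 were 97.6% identical over 822 aligned bases, and those of Chil3 (chr3:106147554-106167564, minus strand) and Chil4 94.4%, so reads could be assigned to the wrong copy. Ly6c1, which is known from endothelial cells, had 13 UMIs in monocytes. Ms4a4c lies at chr19:11404770-11427246 on the plus strand and Plac8 at chr5:100553725-100572245 on the minus strand.

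Against same-gate macrophages, 126 of 5275 genes were higher in monocytes (2.39%) and 176 were lower (3.34%). Against macrophages below the gate, 487 of 9584 genes were higher (5.08%) and 1055 lower (11%). In the 113 barcodes these counts were 77 higher (1.61%) and 154 lower (3.22%) of 4785, and 434 higher (4.59%) and 1293 lower (13.7%) of 9460. The 2 comparisons share the monocytes and are given side by side. The 15 largest ratios against same-gate macrophages were led by genes of other cell types, among them Iglc3, an immunoglobulin light chain, of whose 1456 monocyte UMIs a single barcode held 98.8%.

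Monocyte markers outside the gates were led by Plac8, a small cysteine-rich protein, and Hp, haptoglobin, which binds free hemoglobin. Plac8 reached 3279 CPM in monocytes, 1996 CPM in same-gate macrophages and 194 CPM in macrophages below the gate, 16.9-fold (16.0 to 17.9) above the last. It had a UMI in 130 of 135 monocytes. Fibroblasts of the pool also held Plac8, in 66.8% of barcodes thinned to 1000 UMIs, against 88.1% of monocytes and 13.7% of macrophages below the gate. Ms4a4c, a tetraspanning membrane protein, was at 750 CPM in monocytes, 605 CPM in same-gate macrophages and 86.1 CPM below the gate. Hp was at 103 CPM in monocytes and 55.5 CPM in same-gate macrophages, and had 5 barcodes with a UMI among the 878 below the gate, at 0.513 CPM. The Hp UMIs of monocytes came from 35 barcodes, and 100 held none. Of the 10 monocyte markers measured, 8 were higher than in macrophages below the gate, against 5.08% of all genes, and 1 was lower. Those macrophages were chosen for few Ly6c2 and Chil3 UMIs, so this direction comes with the choice of members and supports nothing further.

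Mcemp1, a single-pass membrane protein, was at 74.4 CPM in monocytes, 19.1 CPM in same-gate macrophages and 5.64 CPM below the gate. It was 3.89-fold (2.38 to 6.64) higher than in same-gate macrophages, with a UMI in 40 barcodes. In that comparison 2 of the 10 markers were higher (2.39% of all genes), and 4 were in the 113 barcodes (1.61%). Hp came in there at 2.70-fold, and at 2.38-fold without the barcode with the most Hp. Vcan, the proteoglycan versican, came in at 2.31-fold, but 1 barcode held 35.0% of its 80 UMIs, and without that barcode the ratio was 1.53. Vcan was more frequent in fibroblasts, in 12.9% of thinned barcodes, than in monocytes, at 5.93%. The marker that went the other way was F13a1, the A subunit of coagulation factor XIII, at 473 CPM in monocytes, 1243 CPM in same-gate macrophages and 1425 CPM in macrophages below the gate. Ccr2 did not separate the groups, at 851 CPM in monocytes, 991 CPM in same-gate macrophages and 762 CPM below the gate.

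**Figure D2:**
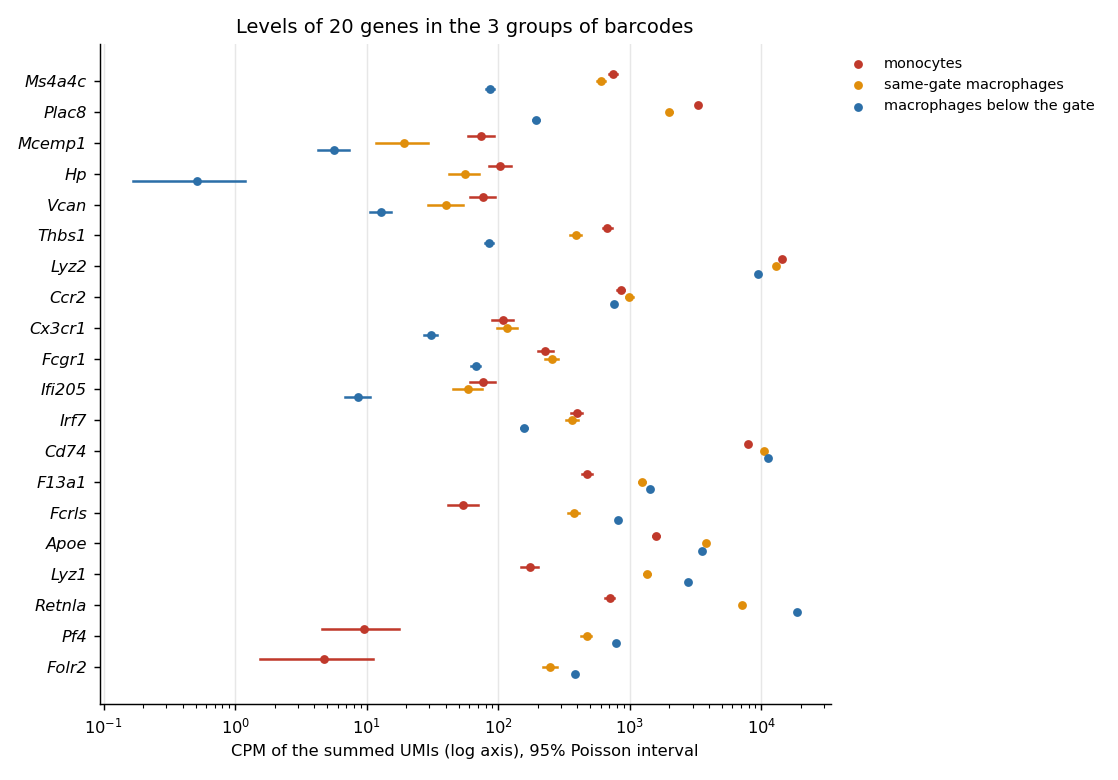
CPM of the summed UMIs (horizontal, log axis) of 20 genes in 135 monocytes, 98 same-gate macrophages and 878 macrophages below the gate, with exact Poisson 95% intervals as bars. Ms4a4c, Plac8, Mcemp1 and Hp are highest in monocytes, Ifi205 and Irf7 lie close together in monocytes and same-gate macrophages, and Retnla, Pf4 and Folr2 are lowest in monocytes.

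Of the trafficking list, 4 of 20 genes were higher in monocytes than in same-gate macrophages (2.39% of all genes) and none was lower, and 6 of 22 were higher and 1 was lower against macrophages below the gate (5.08% and 11%). In the 113 the counts were the same except that 2 were lower than below the gate, S1pr1 and Itgax. Of all genes in the 113, 1.61% were higher and 3.22% lower than in same-gate macrophages, and 4.59% and 13.7% than below the gate. Itgal, the alpha chain of the integrin LFA-1, was at 74.4 CPM in monocytes, 30.9 CPM in same-gate macrophages and 6.87 CPM below the gate. Itgb7, an integrin beta chain, was at 152 CPM in monocytes, 63.7 CPM in same-gate macrophages and 28.6 CPM below the gate. Ccr7, the receptor that guides dendritic cells to lymph nodes, had 74 UMIs in monocytes against 11 UMIs in same-gate macrophages, but the 74 UMIs came from 3 barcodes, 1 of which held 63.5%. Cx3cr1, the fractalkine receptor, was at 108 CPM in monocytes and 116 CPM in same-gate macrophages, a ratio of 0.926 (0.712 to 1.20), and at 30.6 CPM below the gate, where monocytes were 3.53-fold (2.81 to 4.39) higher. Cxcr4, a receptor that holds leukocytes in bone marrow, was at 268 CPM in monocytes, 167 CPM in same-gate macrophages and 123 CPM below the gate. S1pr1, a receptor for egress into lymph and blood, had 2 UMIs in monocytes and was the lower gene over all 135. Genes known from non-classical monocytes were partly present. Itgal and Stap1 were the 2 of 8 higher than in same-gate macrophages (2.39% of all genes). Cd300ld was lower over all 135 (3.34%) and none in the 113 (3.22%). Against macrophages below the gate 5 of 11 were higher and none was lower (5.08% and 11%). In the 113, 5 of 9 were higher there (4.59%). Ace, another such gene, had 5 UMIs.

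Among growth factor receptors and transcription factors, 3 of 29 genes were higher than in same-gate macrophages (2.39% of all genes), namely Runx3, Flt3 and Irf8, and 2 were lower (3.34%). In the 113 barcodes 0 of 28 were higher and 1 was lower (1.61% and 3.22%). Against macrophages below the gate 6 of 30 were higher and 4 lower, both over all 135 (5.08% and 11%) and in the 113 (4.59% and 13.7%). Irf8, which is needed for monocytes and for several dendritic cells, was at 272 CPM in monocytes against 129 CPM in same-gate macrophages, and at 110 CPM against 133 CPM after the 22 and 3 barcodes were left out. Flt3, a receptor of dendritic cell precursors, still had a ratio of 2.29 there, with fewer than 50 UMIs in both groups together. Maf, a transcription factor of mature macrophages, was lower in monocytes in all 4 of these comparisons, at 112 CPM against 424 CPM in same-gate macrophages and 391 CPM below the gate. Batf3, known from cross-presenting dendritic cells, was at 51.5 CPM in monocytes, 119 CPM in same-gate macrophages and 154 CPM below the gate. Csf1r, the receptor for the growth factor Csf1, was at 193 CPM in monocytes, 385 CPM in same-gate macrophages and 305 CPM below the gate. Zeb2 differed little, at 1821 CPM in monocytes, 2020 CPM in same-gate macrophages and 1696 CPM below the gate. Cebpb was at 1382 CPM in monocytes and 1452 CPM in same-gate macrophages, both above the 767 CPM below the gate.

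Interferon-stimulated genes were alike in monocytes and same-gate macrophages in their median and were more abundant than in macrophages below the gate. The first 2 groups were chosen for Ly6c2 and Chil3 UMIs and the last for few of them. The difference cannot be told apart from that choice. Against same-gate macrophages, 0 of 52 were higher and 1 was lower, Ifi44 (2.39% and 3.34% of all genes). The median log2 ratio was -0.05 beside 0.03 over all genes. Against macrophages below the gate, 17 of 55 were higher (30.9%, beside 5.08% of all genes), none was lower, and the median was 0.79 beside -0.03 over all genes. In the 113 barcodes 28 of 55 were higher (4.59% of all genes), with a median of 1.00 beside -0.09. Ifi205, a nucleic acid sensor of the p200 family, had 76.3 CPM in monocytes, 59.1 CPM in same-gate macrophages and 8.52 CPM below the gate, a ratio of 8.96 (6.51 to 12.3) between monocytes and the last. Its relative Ifi211 was at 225 CPM in monocytes, 203 CPM in same-gate macrophages and 60.2 CPM below the gate. Ifit2 and Ifit3, antiviral proteins of the IFIT family, were at 95.4 CPM and 129 CPM in monocytes, 75.5 CPM and 94.6 CPM in same-gate macrophages, and 28.2 CPM and 51.6 CPM below the gate. Irf7, which drives type I interferon genes, was at 394 CPM in monocytes, 364 CPM in same-gate macrophages and 158 CPM below the gate. Ly6e, a surface protein that blocks entry of some viruses, was at 2137 CPM in monocytes, 2194 CPM in same-gate macrophages and 832 CPM below the gate, with a UMI in 131 monocytes. Ifitm3, an antiviral membrane protein, was present in 127 monocytes with a median of 42.5 UMIs per 10000, against 43.8 in same-gate macrophages and 17.5 below the gate. Bst2, or tetherin, was 2.53-fold higher than below the gate over all 135 barcodes and just under the limit at 1.99-fold in the 113, being also a marker of plasmacytoid dendritic cells.

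The upstream sequence of these genes was read as well. The core of the interferon-stimulated response element, searched as GAAANNGAAA on both strands in the 250 bases before the RefSeq start, was found in 229 of 7654 promoters of genes measured against macrophages below the gate (2.99%), in 821 of 27025 promoters of all genes (3.04%) and in 24 of the 46 listed interferon genes with a promoter entry (52.2%). Among the listed genes that were higher against macrophages below the gate it was found in 8 of 14 (57.1%). Over all genes, it was found in 24 of 360 promoters of genes higher in monocytes than in macrophages below the gate (6.67%) and in 19 of 793 of the genes lower (2.40%). A PU.1 core, GAGGAAGT, was found in 14 of the 360 higher genes (3.89%) and in 2.90% of the lower genes, against 3.04% of measured genes and 2.44% of all promoters. A C/EBP motif, TTGCNNAA, was found in 39 of the 360 (10.8%) and in 9.33% of the lower genes, against 7.68% of measured genes and 9.55% of all promoters. A match describes letters in this window and is not a binding site. Ifit2 and Irf7, named above with the same order of groups, had 0 matches of the interferon core in this window. The promoters of Ifi205, Ifi211 and Ifit3 are shown because these genes follow the pattern above and hold the element, and the capitals mark it. They are RefSeq sequences of GRCm38.p6, printed 5′ to 3′ on the strand of the gene, at chr1:174031756-174032005 (minus strand), chr1:173913047-173913296 (minus strand) and chr19:34583279-34583528 (plus strand).
Ifi205: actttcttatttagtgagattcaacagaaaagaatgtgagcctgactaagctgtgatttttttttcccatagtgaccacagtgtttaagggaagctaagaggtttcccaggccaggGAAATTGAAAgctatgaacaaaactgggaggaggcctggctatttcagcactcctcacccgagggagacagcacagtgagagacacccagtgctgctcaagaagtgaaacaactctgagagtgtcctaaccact
Ifi211: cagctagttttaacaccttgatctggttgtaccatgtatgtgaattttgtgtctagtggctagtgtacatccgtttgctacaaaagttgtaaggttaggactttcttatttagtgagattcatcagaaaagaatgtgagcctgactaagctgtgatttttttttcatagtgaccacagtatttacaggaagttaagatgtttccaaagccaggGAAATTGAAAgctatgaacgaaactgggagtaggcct
Ifit3: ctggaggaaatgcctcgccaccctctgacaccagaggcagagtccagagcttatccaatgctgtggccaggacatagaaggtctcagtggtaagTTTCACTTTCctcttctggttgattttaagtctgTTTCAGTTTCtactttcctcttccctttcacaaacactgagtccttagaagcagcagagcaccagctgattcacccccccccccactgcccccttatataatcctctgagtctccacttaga
Ifi205 and Ifi211 carry the same 10 letters, GAAATTGAAA, on the printed strand, with the nearest base 125 and 28 bases before the start. The letters around the element are also largely alike in these 2 sequences, so the 2 matches are not independent. Ifit3 has 2 matches, both on the other strand and so read as TTTCNNTTTC, of which the nearer ends 113 bases before the start.

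Receptors for antibodies and microbial patterns showed the same order of groups in part. Of 36 measured, 9 were higher and 3 lower than in macrophages below the gate (5.08% and 11% of all genes), while 1 of 26 was higher and 1 lower against same-gate macrophages (2.39% and 3.34%). In the 113, 10 of 35 were higher and 2 lower than below the gate (4.59% and 13.7%). Against same-gate macrophages 2 of 26 were higher there (1.61%), Clec4d and Cd300lf. Fcgr1, the high-affinity IgG receptor, was at 228 CPM in monocytes, 255 CPM in same-gate macrophages and 67.3 CPM below the gate. Cd300lf, a lipid-binding receptor, was higher in both comparisons, at 46.8 CPM in monocytes, 20.9 CPM in same-gate macrophages and 4.31 CPM below the gate. Sirpb1c, a signal-regulatory protein, was at 104 CPM in monocytes, 90.1 CPM in same-gate macrophages and 14.8 CPM below the gate. The C-type lectins Clec4d and Clec4e, which bind mycobacterial and fungal glycolipids, were at 92.5 CPM and 129 CPM in monocytes against 23.4 CPM and 54.1 CPM below the gate. Tlr4, the receptor for lipopolysaccharide, was lower, at 22.9 CPM in monocytes, 61.9 CPM in same-gate macrophages and 51.3 CPM below the gate. Tyrobp, an adaptor of many such receptors, had a UMI in 131 monocytes at 2340 CPM, against 1818 CPM in same-gate macrophages and 1333 CPM below the gate.

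Of cytokine and inflammasome genes, 1 of 29 was higher and 1 lower than in same-gate macrophages (2.39% and 3.34% of all genes), and 5 of 35 were higher and 2 lower than below the gate (5.08% and 11%). In the 113 the counts were 0 higher and 1 lower of 27 (1.61% and 3.22%), and 6 higher and 4 lower of 35 (4.59% and 13.7%). Il1b, which encodes interleukin-1 beta, was at 863 CPM in monocytes, 668 CPM in same-gate macrophages and 579 CPM below the gate. It was found in 77 of 135 monocytes, and 3 barcodes held 32.2% of its UMIs. Il1rn, its soluble antagonist, went the other way and was lower in both comparisons, at 23.9 CPM in monocytes, 87.4 CPM in same-gate macrophages and 109 CPM below the gate. Osm, oncostatin M, was at 96.4 CPM in monocytes, 79.2 CPM in same-gate macrophages and 34.2 CPM below the gate. Il6 was higher than in same-gate macrophages at 2.02-fold (1.25 to 3.34), but 3 barcodes held 76.9% of its 52 UMIs, and the ratio was 1.56 in the 113.

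Most genes of scavenging and of resident macrophages were lower in monocytes. Of 26 measured, 19 were lower in monocytes than in same-gate macrophages (3.34% of all genes) and none was higher. The median log2 ratio was -2.45. Against macrophages below the gate 22 were lower and 1 was higher of 29 (11% and 5.08%), with a median of -3.99. Both counts of lower genes were the same in the 113 barcodes (3.22% and 13.7% of all genes). The gates ask for fewer than 10 UMIs of macrophage genes, so this direction comes with the choice of members and supports nothing further. Retnla, a secreted protein of alternatively activated macrophages, was at 702 CPM in monocytes, 7152 CPM in same-gate macrophages and 18713 CPM below the gate. It was present in 59 monocytes, and 3 of them held 54.3% of its UMIs. Pf4, a platelet-type chemokine that skin macrophages also make, had 10 UMIs in monocytes (9.54 CPM), against 469 CPM in same-gate macrophages and 782 CPM below the gate. Lyve1, a hyaluronan receptor of perivascular macrophages, had 1 UMI, a ratio of 0.00953 (0.000239 to 0.0542) to same-gate macrophages. Folr2, a folate receptor, had 5 UMIs, a ratio of 0.0193 (0.00623 to 0.0457). Ltc4s, the leukotriene C4 synthase, had 0 UMIs, which allows up to 2.86 CPM. That limit is 18.4-fold below the 52.8 CPM of same-gate macrophages, whose own counting error is not included. Timd4, a receptor for phosphatidylserine, also had 0, and the limit is 7.63-fold below the 21.8 CPM of same-gate macrophages. Apoe was lower by a smaller factor, at 1578 CPM in monocytes, 3801 CPM in same-gate macrophages and 3552 CPM below the gate, and just short of 2-fold in the 113, at a ratio of 0.516 to same-gate macrophages. Msr1, the class A scavenger receptor, was the gene that was higher, at 76.3 CPM in monocytes, 61.0 CPM in same-gate macrophages and 26.7 CPM below the gate.

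**Figure D3:**
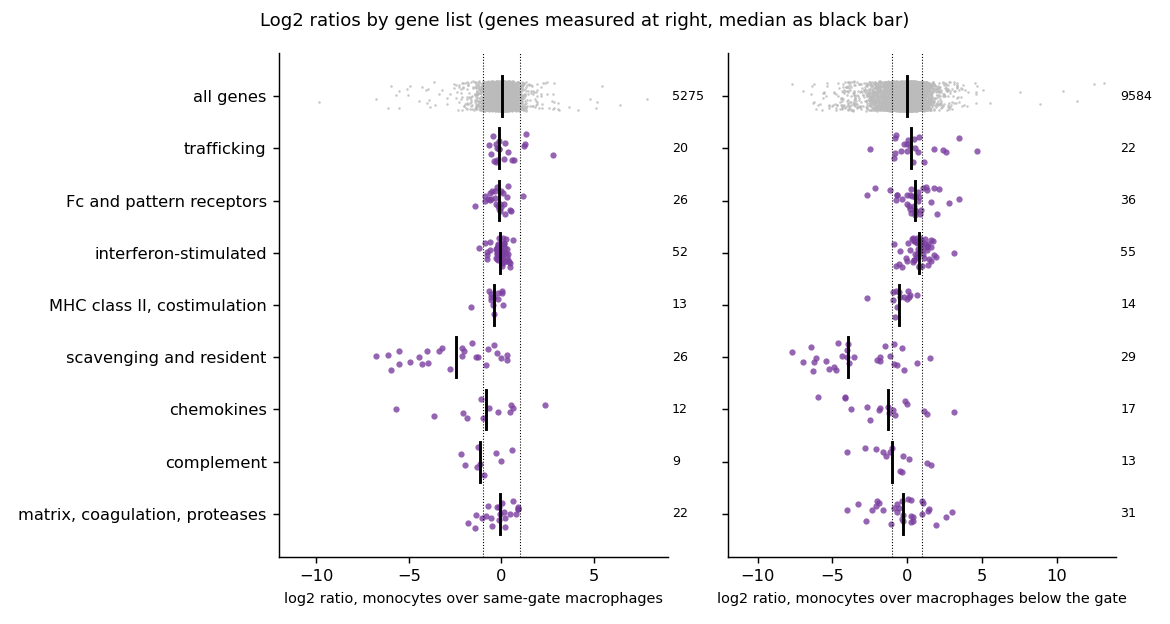
Log2 ratio (horizontal) of each measured gene for all genes and 8 lists, monocytes over same-gate macrophages (left) and over macrophages below the gate (right), with the median as a black bar, the number of genes at right and dotted lines at 2-fold. The interferon list is centred at -0.05 on the left and 0.79 on the right, and the scavenging list at -2.45 and -3.99.

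MHC class II and costimulation genes stayed within 2-fold of both macrophage groups apart from 1 gene in each comparison. Cd74, the invariant chain, was at 7927 CPM in monocytes, 10403 CPM in same-gate macrophages and 11297 CPM below the gate, and H2-Ab1, a class II beta chain, at 2846 CPM in monocytes, 3953 CPM in same-gate macrophages and 4920 CPM below the gate. Of 13 class II and costimulation genes measured, 1 was lower than in same-gate macrophages, H2-DMb2 (3.34% of all genes), and none was higher. Below the gate, 1 of 14 was lower (11% of all genes) and none was higher. Per barcode, Cd74, H2-Aa, H2-Ab1 and H2-Eb1 together ranged between 0 and 815 UMIs per 10000 in monocytes with a median of 49.0, against a median of 192 in same-gate macrophages and 233 below the gate, and the ranges overlap.

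Chemokine ligands divided. Of 12 measured, 1 was higher and 5 were lower than in same-gate macrophages (2.39% and 3.34% of all genes), and of 17, 3 were higher and 10 lower than below the gate (5.08% and 11%). In the 113 the counts were 0 higher and 5 lower of 11 (1.61% and 3.22%), and 2 higher and 9 lower of 17 (4.59% and 13.7%). Ccl8, a ligand that recruits T cells, had 6 UMIs in monocytes, against 316 CPM in same-gate macrophages and 381 CPM below the gate. Cxcl2, which attracts neutrophils, was at 423 CPM in monocytes, 1531 CPM in same-gate macrophages and 1590 CPM below the gate, and Ccl2, the ligand of Ccr2, at 230 CPM in monocytes, 493 CPM in same-gate macrophages and 403 CPM below the gate. Ccl3 and Ccl4, the macrophage inflammatory proteins, were higher than below the gate, at 214 CPM against 85.3 CPM and 559 CPM against 252 CPM. Ccl5 was counted as higher in both comparisons, but 1 barcode held 80.3% of its 66 UMIs, and without the 22 barcodes its ratio was 0.392 to same-gate macrophages.

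Complement genes outside C1q were lower in 5 of 9 against same-gate macrophages (3.34% of all genes) and none was higher, and 3 of 9 were lower in the 113 (3.22%). Below the gate, 2 of 13 were higher and 7 lower (5.08% and 11%), and 2 and 6 in the 113 (4.59% and 13.7%). Cfp, properdin, was at 192 CPM in monocytes, 488 CPM in same-gate macrophages and 815 CPM below the gate, and C3ar1, the receptor for C3a, at 40.1 CPM in monocytes, 159 CPM in same-gate macrophages and 107 CPM below the gate. C3 itself was higher than below the gate, at 75.4 CPM against 30.7 CPM. Of the matrix, coagulation and protease list, 4 of 22 were lower than in same-gate macrophages, namely Fn1, Ctsd, Timp2 and F13a1 (3.34% of all genes), none was higher, and 7 of 31 were higher and 9 lower than below the gate (5.08% and 11%). In the 113 barcodes 3 of 22 were lower (3.22%) and 5 were higher (1.61%) than in same-gate macrophages, namely F5, Thbs1, F10, Mmp19 and Vcan, at 2.23 to 2.37-fold. Without the barcode with the most UMIs of each, F5 was at 1.58-fold and Vcan at 1.53-fold, and Thbs1 at 2.12-fold. Below the gate, 7 of 30 were higher and 8 lower in the 113 (4.59% and 13.7%). Thbs1, thrombospondin-1, an adhesive protein that activates TGF-beta, was at 675 CPM in monocytes, 387 CPM in same-gate macrophages and 84.4 CPM below the gate, a ratio of 7.99 (7.21 to 8.84) between monocytes and the last. It was found in 70 of 135 monocytes, with a highest value of 49.4 UMIs per 10000. Fn1, fibronectin, ran the opposite way, at 423 CPM in monocytes, 881 CPM in same-gate macrophages and 1682 CPM below the gate, and 66.7% of thinned fibroblast barcodes held it against 28.1% of monocytes.

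Lipid and iron genes included opposite members. Apoc2, an activator of lipoprotein lipase, was at 71.6 CPM in monocytes, 46.4 CPM in same-gate macrophages and 6.87 CPM below the gate, and Lpl, the lipase itself, at 326 CPM in monocytes, 876 CPM in same-gate macrophages and 1390 CPM below the gate. Lyz1, a lysozyme of Paneth cells and some macrophages, was at 174 CPM in monocytes, 1350 CPM in same-gate macrophages and 2748 CPM below the gate, lower in both comparisons, while Lyz2 was at 14442 CPM in monocytes, 12966 CPM in same-gate macrophages and 9466 CPM below the gate. The 2 genes share sequence, and reads could be split between them. Slpi, an inhibitor of neutrophil elastase, was the granule gene higher in both, with 53 UMIs in monocytes against 22 UMIs in same-gate macrophages, and 50.6 CPM in monocytes against 14.8 CPM below the gate, and 39.6% of its monocyte UMIs lay in 1 barcode. Cybb, the catalytic chain of the NADPH oxidase, was present in 129 monocytes and was at 1076 CPM in monocytes, 901 CPM in same-gate macrophages and 565 CPM below the gate, and none of 7 oxidase genes was higher or lower in either comparison over all 135. In the 113 Cybb was higher than below the gate, at 2.14-fold, as 1 of the 7 (4.59% of all genes). Slc2a1, a glucose transporter, and Ndrg1 were the 2 of 19 glycolysis and hypoxia genes higher than in same-gate macrophages (2.39% of all genes), at 47.7 CPM against 22.8 CPM and 84.0 CPM against 33.7 CPM, and none was lower. Against macrophages below the gate 2 of 22 were higher and 1 lower (5.08% and 11%), and 4 were higher and 1 lower in the 113 (4.59% and 13.7%).

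Of 21 stress genes that dissociation induces, 1 was lower in each comparison (3.34% and 11% of all genes) and none was higher. It was Egr1, an immediate early gene, at 86.8 CPM in monocytes, 235 CPM in same-gate macrophages and 313 CPM below the gate. The heat shock gene Hspa1a was at 2145 CPM in monocytes, 2068 CPM in same-gate macrophages and 1408 CPM below the gate. Cell cycle genes were lower than below the gate in 9 of 22 (11% of all genes) and higher in none, and lower in 15 of 22 in the 113 barcodes (13.7%). Against same-gate macrophages 2 of 10 were higher (2.39%) and none was lower. In the 113 none of 7 was higher than in same-gate macrophages and 1 was lower (3.22%). Top2a, which untangles replicated DNA, was at 44.8 CPM in monocytes, 16.4 CPM in same-gate macrophages and 134 CPM below the gate. In the 113 it was at 13.3 CPM in monocytes, 17.1 CPM in same-gate macrophages and 134 CPM below the gate, and its direction against same-gate macrophages was reversed. A single barcode held 55.3% of its monocyte UMIs.

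Monocytes and same-gate macrophages were next followed along the macrophage genes of the gate, without the 22 barcodes and the 3 same-gate macrophages that met the same limits. Bins of 0 to 2, 3 to 5 and 6 to 9 UMIs held 61, 29 and 23 monocytes, and bins of 10 to 14, 15 to under 50 and 50 or more held 16, 45 and 34 same-gate macrophages. Retnla was at 132, 975 and 2179 CPM along the 3 monocyte bins, at 6325, 6097 and 8767 CPM along the 3 macrophage bins, and at 18873 CPM below the gate. Of the 678 Retnla UMIs in these monocytes, 1 barcode held 24.5%, and the bins were not repeated without it. Plac8 was at 3772, 3494 and 2833 CPM in the monocyte bins and 2163, 2525 and 1503 CPM in the macrophage bins. Hp was at 186, 88.6 and 42.2 CPM in the monocyte bins and 38.1, 65.9 and 34.8 CPM in the macrophage bins. Fcrls, an Fc receptor-like scavenger receptor, had 4.71, 135 and 132 CPM in monocytes and 374, 322 and 455 CPM in macrophages. Apoe did not follow the order within monocytes, at 2296, 2043 and 1050 CPM, and reached 5453 CPM in the last macrophage bin. The bins rest on the gate genes and are a description of barcodes of 1 library, with a median of 12976 UMIs in the last bin and 7081 in the first.

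**Figure D4:**
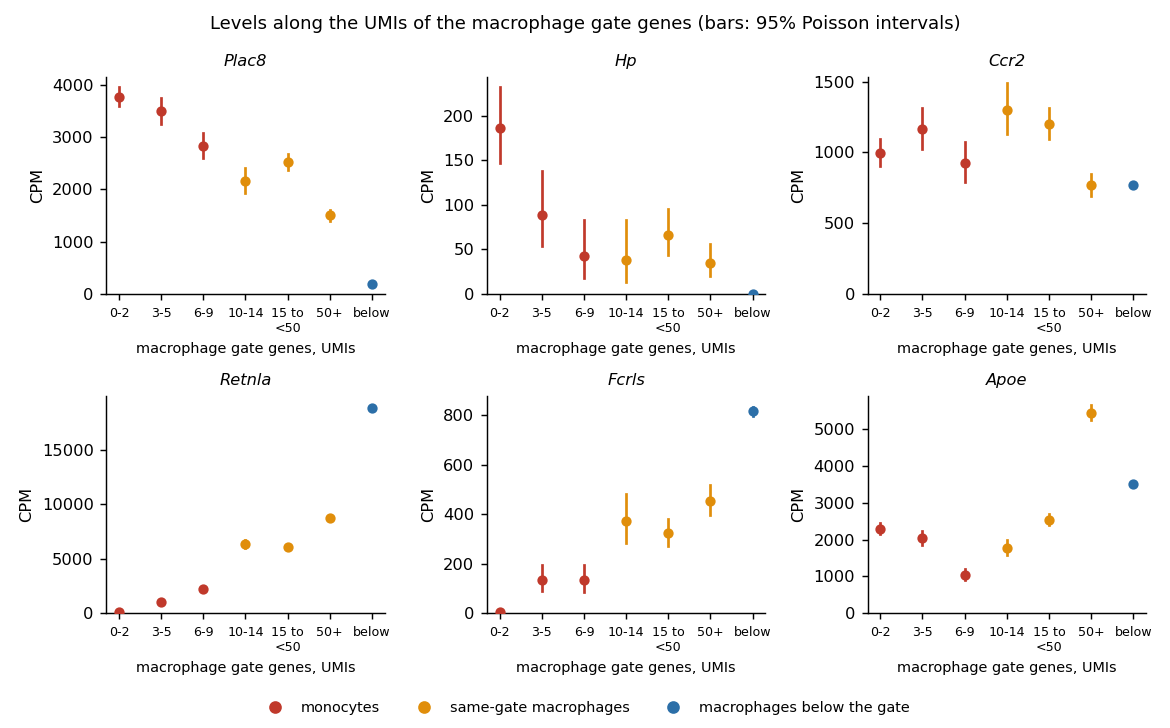
CPM (vertical, from 0) of 6 genes along bins of UMIs of the 5 macrophage genes in 113 monocytes (bins 0 to 9) and 95 same-gate macrophages (bins 10 and above), with 866 macrophages below the gate at right and exact Poisson 95% intervals. Plac8 and Hp are highest in the first monocyte bin, Retnla and Fcrls are lowest there, and Ccr2 stays between 769 and 1300 CPM in the 6 bins.

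Within the 113 monocytes, MHC class II divided the barcodes further. With limits of 20 and 200 class II UMIs per 10000, set after the values were seen, 37 barcodes were low, 43 intermediate and 33 high, and 4 and 7 barcodes lay within 10% of the limits. Hp was at 262 CPM in the low, 123 CPM in the intermediate and 20.9 CPM in the high barcodes. Vcan was at 142, 142 and 10.5 CPM in the same order, but 1 barcode held 65.1% of its UMIs in the intermediate barcodes, which were at 51.8 CPM without it. Thbs1 was at 1344, 950 and 297 CPM. Slpi was at 154 and 19.9 CPM and had 0 UMIs in the high barcodes, and the low ones were at 69.4 CPM without the 1 barcode that held the most. The reverse order held for Cd209a, a lectin known from dendritic cells derived from monocytes, at 8.32, 16.6 and 566 CPM, with a UMI in 17 of the 33 high barcodes. Flt3 was at 62.9 CPM in the high barcodes, in 10 of them, and had 0 UMIs in the others. Zbtb46, another listed marker of dendritic cells, was at 38.4 CPM in the high and 4.16 CPM in the low barcodes. Ccr7 was at 248 CPM in the high barcodes and had 0 UMIs in the low ones, with all its UMIs in 3 barcodes. Whether the high barcodes are monocytes or dendritic cells was not tested. Klrd1, which encodes the natural killer receptor chain CD94, was at 4.16, 9.93 and 94.3 CPM. Ly6a, an interferon-stimulated surface antigen, was at 45.8 CPM in the low barcodes against 444 and 402 CPM in the others. Il1b was at 633, 1159 and 1376 CPM. Ms4a4c and Ccr2 varied less, at 832, 950 and 1026 CPM and at 1261, 1000 and 845 CPM. Median depth was 7198, 7054 and 7859 UMIs.

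Barcodes with and without Chil3 differed in some of the same genes and not in others. Among the 113, 70 barcodes with Chil3 had Hp at 178 CPM and Vcan at 141 CPM, against 55.8 CPM and 32.3 CPM in the 43 without. Without the barcode with the most Vcan, Vcan was at 86.2 CPM with Chil3. Cd74 was at 5773 CPM with Chil3 and 13973 CPM without, a ratio of 0.413 (0.394 to 0.433), and Cd209a at 59.4 CPM and 411 CPM. Klrd1 had 0 UMIs with Chil3 and 91.1 CPM without. Other genes went another way. Retnla was at 66.6, 1745 and 471 CPM in the low, intermediate and high class II barcodes. It was 7.08-fold (4.20 to 12.7) more abundant in the high than in the low ones. The intermediate ones were at 1249 CPM without the barcode with the most Retnla. Retnla was also 3.98-fold (3.22 to 4.97) more abundant with Chil3 than without. Without that same barcode it was at 865 CPM with Chil3, against 297 CPM in the barcodes without Chil3. Slpi was at 45.1 CPM with Chil3 and 61.7 CPM without, where 1 barcode held all of its UMIs. Il1b had a ratio of 2.17 between the high and the low class II barcodes and of 1.00 with Chil3 over without. Ly6c2, by which all of the 43 passed the gate, was at 2644 CPM with Chil3 and 2832 CPM without. Across all 135 barcodes the class II rate had a Spearman rho of 0.38 with Cd209a and -0.37 with Hp per 10000 UMIs. The barcodes share 1 library and differ in depth, and many are at 0.

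**Figure D5:**
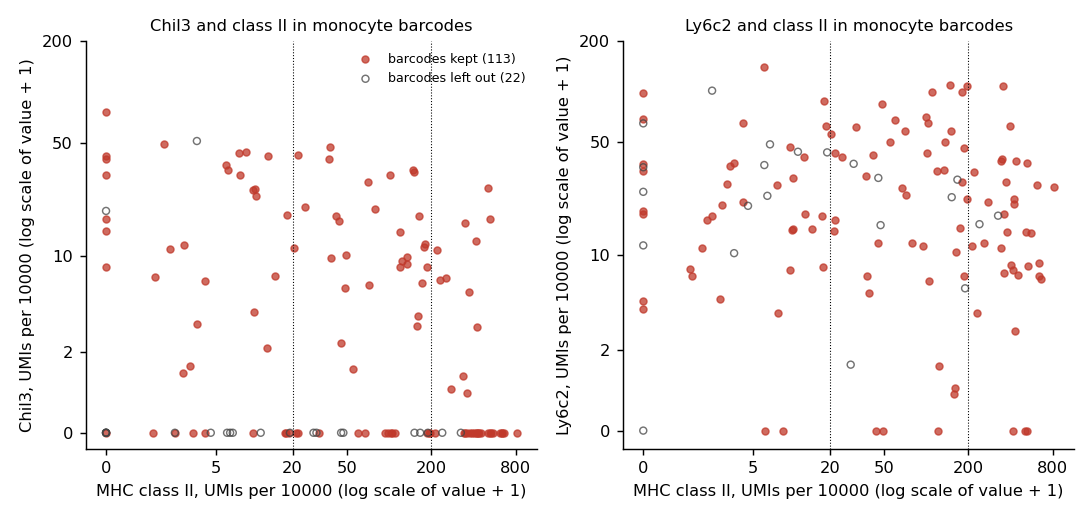
Chil3 (left) and Ly6c2 (right) in UMIs per 10000 (vertical) against the 4 MHC class II genes in UMIs per 10000 (horizontal) per monocyte barcode, on log scales of value + 1, with dotted lines at 20 and 200. Filled points are the 113 barcodes kept and open circles the 22 left out for Lyz2 at 0 or for antibody-secreting, muscle or S100a8 RNA. Chil3 at 0 is frequent among barcodes with more than 200 class II UMIs, where 12 of 33 filled points have Chil3, against 28 of 37 below 20.

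An immunoglobulin transcript was spread over the monocytes. Ighm, the IgM heavy chain gene, had a UMI in 101 of 135 barcodes, and in 81 of the 113, where no barcode held more than 9 UMIs and Igkc, Iglc2 and Iglc3, the light chain genes, were at 0. Its level in the 113 was 285 CPM, against 342 CPM in the 95 same-gate macrophages and 130 CPM in the 866 below the gate. Over all 135, it was at 3194 CPM, of which 3 barcodes held 90.6%. In fibroblasts of the pool Ighm was at 1.99 CPM.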

How the data were processed

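Single-cell RNA-seq was run on 1 pooled library of skin cells. The authors deposited UMI counts per gene and barcode, made with Cell Ranger on mm10 per the submitters' processing notes; the version is not given in the sources used here. The matrix holds 32285 genes, 8367 barcodes and 83725065 UMIs, with a median of 9426 UMIs per barcode, and 240 barcodes were removed by the gene and mitochondrial filters. Counts were summed per group, since cells are not replicates, and no p-value was computed. Ratios were taken for genes with at least 50 UMIs in both groups together, and log2 values have 0.5 UMIs added to each group. A count of 0 was read against a floor of 3 counts. Shares were thinned to 1000 UMIs per barcode.

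Doublets were called with Scrublet in Scanpy 1.11.5 at an expected rate of 6% (305 of 8127) and were kept, with their removal as an alternative. Analyses used Python 3.11.15, NumPy 2.4.6, SciPy 1.17.1, pandas 2.3.3, matplotlib 3.10.9 and Biopython 1.88, and were tested on simulated data. The members and the 32 gene lists (543 symbols, of which Mx1, Mx2, Pyhin1, Cxcl11, Clec7a and Serpinb10 had no row) were chosen with earlier results of these data known. Genes named were, per list with at least 20 UMIs, the 3 most abundant and the 3 highest and 3 lowest ratios against same-gate macrophages, the 15 highest and 15 lowest ratios over all genes, the gate genes and the markers of other cell types. Other named genes, among them Itgb7, Cxcr4, Csf1r, Ifi205, Ifi211, Ifit2, Ifit3, Irf7, Ly6a, Ccl2, Ccl3, Cxcl2, Osm, Fcgr1, Sirpb1c, Fn1, Ctsd, Timp2 and Fcrls, and all genes of the closing observations, were chosen after their values were seen, as were the limits on Lyz2, antibody-secreting, muscle and S100a8 RNA (0 UMIs, and at least 5, 10 and 5), leaving out the barcode with the most UMIs of a gene, and the class II limits. Some genes are not reported here.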

Additional observations from a re-analysis of the deposited data

How the results depend on the processing

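No paired analysis was possible because all barcodes come from 1 library. The number of monocytes lay between 101 and 141 under every alternative run, and 146 to 183 of the 183 called ratios of named genes stayed past 2-fold. All 183 stayed with minimums of 1 or 200 UMIs and with 500 genes per barcode, settings that leave these ratios unchanged. Under the other settings 146 to 182 stayed. Counts of genes moved by over 1.5 times as follows; the cause was not tested unless given. Genes lower than in same-gate macrophages numbered 117 with gates per 10000 UMIs and 113 without barcodes holding 3 markers of neutrophils, dendritic or plasmacytoid cells. With a minimum of 1 UMI, by which more genes enter, 2534 were higher and 2534 lower than in same-gate macrophages, and 4285 higher and 1993 lower than below the gate. With a minimum of 200 UMIs the counts were 20 and 50, and 202 and 472. Adding 5 UMIs, which weighs more on the smaller group, gave 797 higher and 391 lower than below the gate. Without the barcodes that met the limits on Lyz2, antibody-secreting, muscle or S100a8 RNA, an alternative chosen after seeing the data, 77 were higher than in same-gate macrophages.

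Reversed log2 ratios follow, against same-gate macrophages unless given as below the gate. Without called doublets, Ighm was at -0.067, Igha 1.76, and below the gate Acta2 -1.36 and Igfbp7 -0.59. With 10 UMIs of Ly6c2 and Chil3, Iglc2 was at -0.15, Top2a -0.41, and below the gate Acta2 -0.98, Igfbp7 -1.68 and Fabp4 -0.083. With under 5 macrophage UMIs, Acta2 and Igfbp7 were at -0.76 and -0.37 below the gate. With gates per 10000 UMIs, Iglc2 was at -0.51. Without the barcodes holding 3 markers, Ccr7 was at -1.52, Irf8 -0.18, S100a8 and S100a9 0.19, Igha 2.51, Top2a -1.11, and Siglech below the gate -2.66. Without the barcodes that met those limits, Irf8 was at -0.27, S100a8, S100a9 and Igha 0.35, Ccl5 -1.24, Siglech -4.51, Ighm -0.26, Top2a -0.34 and Ppp1r16b -0.75, and below the gate Ccl5 -0.45, Siglech -3.52, Ly6d -0.37, Iglc2 -0.71, Igkc -0.99 and Ppp1r16b -0.55. Without the monocyte barcode with the most UMIs, also added later, Iglc2 was at -0.19. Without the monocyte barcode with the most Vcan, added later as well, Vcan was at 0.32, against 0.92 over all 135. Depth limits genes under 50 UMIs, which include most markers of rare cells.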

Other observations

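Outside the gene lists, several genes were more abundant in the 113 monocytes left after the limits on Lyz2, antibody-secreting, muscle and S100a8 RNA, all chosen after their values were seen. Lrrk2, a large kinase of the endolysosomal system, was at 85.7 CPM in monocytes, against 11.4 CPM in 95 same-gate macrophages and 9.37 CPM in 866 macrophages below the gate. The ratio to same-gate macrophages was 7.53 (4.06 to 15.3), its UMIs came from 13 monocytes, and without the 1 that held 49.3% of them the ratio was 3.94. Nrg1, a growth factor of the epidermal growth factor family, was at 83.3 CPM in 15 monocytes, against 14.2 CPM in same-gate macrophages and 8.74 CPM below the gate, and 1 monocyte held 42.0% of its UMIs. Gsr, glutathione reductase, was spread more widely, with 146 CPM in 41 monocytes, against 47.4 CPM in same-gate macrophages and 16.4 CPM below the gate.

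Sema4d, a semaphorin of leukocytes, was at 186 CPM in monocytes, 110 CPM in same-gate macrophages and 19.2 CPM below the gate. Gpr141, an orphan receptor, was at 212 CPM in monocytes, 126 CPM in same-gate macrophages and 17.0 CPM below the gate. Sgms2, a sphingomyelin synthase, was at 105 CPM in monocytes, 37.0 CPM in same-gate macrophages and 10.4 CPM below the gate. Kitl, the ligand of the receptor Kit, had 0 UMIs in monocytes, against 48.3 CPM in same-gate macrophages and 64.5 CPM below the gate.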
